A study of Homo sapiens with 2 samples.

Results

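The genes examined here encode the nuclear pore complex, the soluble receptors that carry cargo through it and the Ran GTPase cycle that gives transport its direction. They were chosen by name: protein-coding RefSeq genes whose symbol is NUP, IPO, XPO, KPNA or TNPO followed by a number, together with KPNB1, XPOT, RAN, RANBP1, RANBP2, RANGAP1, RCC1, TPR, SEC13, RAE1, AAAS, NDC1 and POM121. The rule found 58 genes among 19974 protein-coding genes on chromosomes 1 to 22 and X. The rule itself used no measured value, but the set was chosen with earlier results of these data known. A gene was called bound where the summit of a deposited peak lay within 1000 bp of either annotated end.

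Chromatin came from the human cell line PANC-1, derived from a ductal adenocarcinoma of the pancreas, treated with inflachromene (1 sample), a small molecule that binds the HMGB1 and HMGB2 proteins, or with its solvent DMSO (1 sample). Both samples were double-crosslinked, with EGS at 15 mM and then formaldehyde at 1%, and were profiled by ChIPmentation, in which Tn5 transposase adds sequencing adapters to immunoprecipitated chromatin. What the antibody recognised is not given in the sources used here, nor are dose and duration. With n = 1 in each treatment no difference below has a replicate check, no p-value is given, and each comparison is between these 2 libraries. Intervals for pileups and for the ratio at a single gene cover counting error only. Those for shares and for medians treat genes as independent draws, although all genes share the same 2 libraries. No interval holds the spread between samples.

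As background, the pore is built from nucleoporins arranged in rings: the Y complex forms the outer scaffold, the inner ring lines the membrane curve, phenylalanine-glycine repeat proteins fill the central channel, and filaments and a basket project into the cytoplasm and the nucleus. Importin alpha proteins recognise nuclear localisation signals and bind importin beta (KPNB1), while other members of the beta family carry their own cargo inward and exportins carry cargo outward. RCC1 charges RAN with GTP in the nucleus, and RANGAP1 with RANBP1 and RANBP2 promotes its hydrolysis in the cytoplasm. These are mostly housekeeping genes, and rapidly dividing cells rebuild their pores after each mitosis.

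The deposited lists held 10836 inflachromene peaks and 15186 DMSO peaks on the chromosomes used, with a median of 23 fragments at the summit in both, and the inflachromene library was inferred to hold 0.964 times as many fragments as the DMSO library. Of 7 markers listed for a ductal carcinoma line, 4 had a peak in inflachromene and 5 in DMSO. VIM had 39 and 40 fragments in inflachromene and DMSO, SOX9 35 and 44, and KRT8 and KRT18 shared a peak with 30 and 34. KRT7 and EPCAM had no peak in either list. Of 15 markers of other cell types 2 had a peak in each list, APOA1 and SPI1. A peak at a gene's end does not measure its transcript.

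Most of the pore and transport genes carried a peak. In inflachromene 42 of 58 (72.4%, exact 95% interval 59.1 to 83.3) had a summit at an end, against 38% of all protein-coding genes. In DMSO 45 of 58 (77.6%, 64.7 to 87.5) did, against 45.7% of all genes. Peaks stood in both lists at 40 genes (69%, against 36.3% of all genes), in inflachromene alone at 2 (3.45%, against 1.69%) and in DMSO alone at 5 (8.62%, against 9.41%). The remaining 11 (19%, against 52.6%) had none in either list. With both lists cut to the length of the shorter the order turned: 42 members were bound in inflachromene and 41 in DMSO. Then 5 were bound in inflachromene alone and 4 in DMSO alone. Only the DMSO list was shortened, so DMSO counts could not rise and the count in inflachromene alone could not fall. Shares over all genes at that length are not given here, so these counts say nothing particular to the members. Bound members were also a little stronger in the control than bound genes in general: the median fold enrichment, the authors' ratio of summit pileup to local background, was 9.09 in inflachromene and 11.1 in DMSO, against 8.55 and 9.37 over all bound genes. The median number of fragments at the summit was 25 in inflachromene for members and for all bound genes, and in DMSO it was 32 for members and 28 for all.

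**Figure D1:**
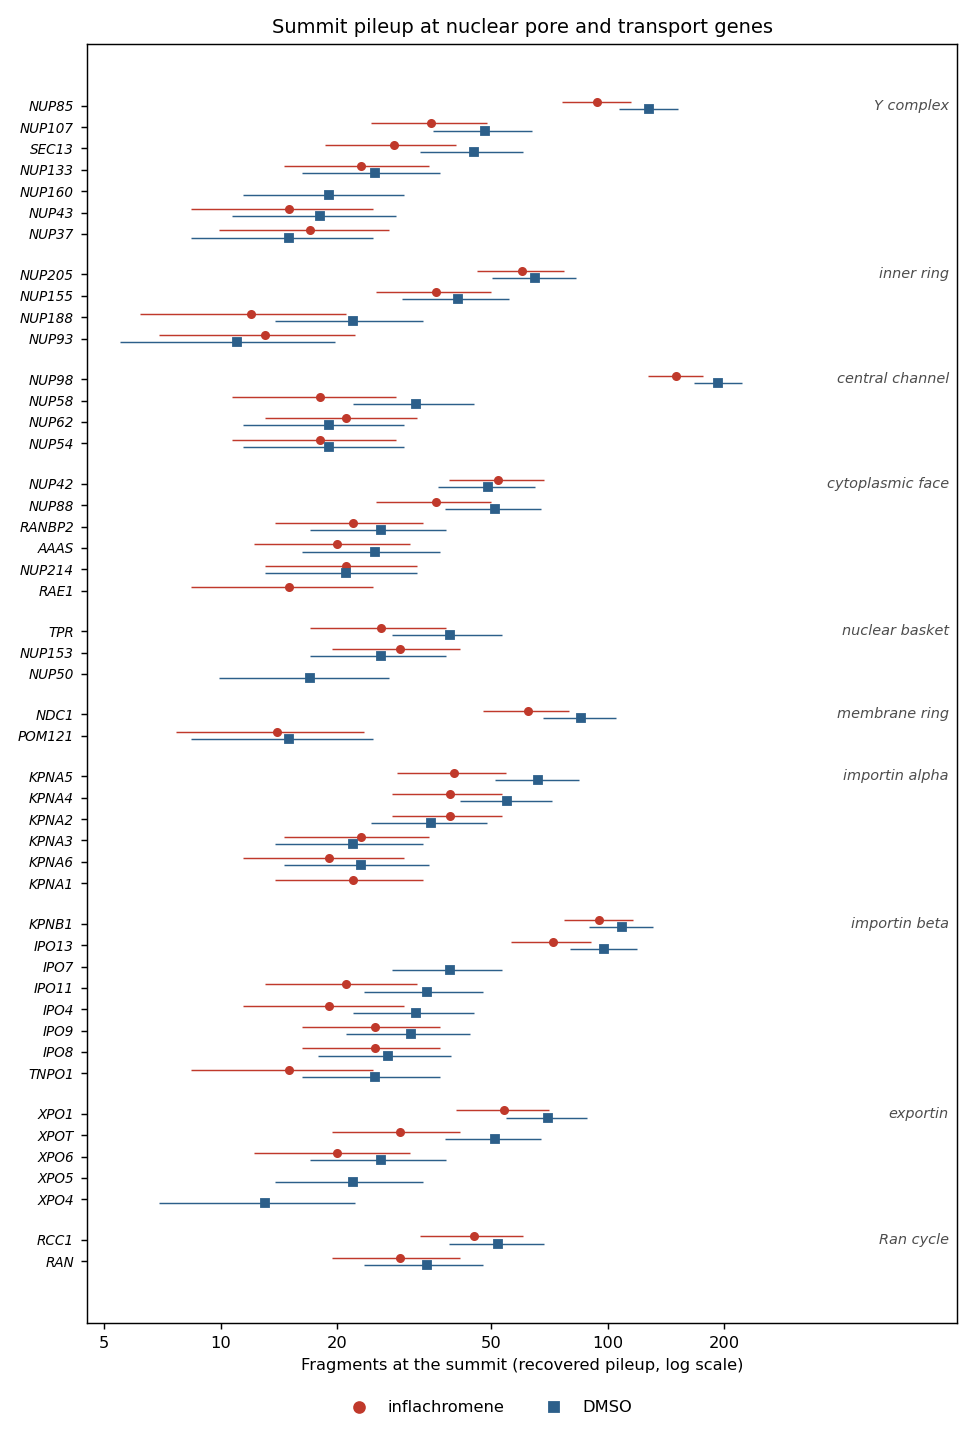
Number of fragments at the summit (log scale) for the 47 members with a peak in at least 1 list, by role; circles are inflachromene and squares DMSO, each a single library, and bars are exact Poisson 95% intervals. NUP98 (150 and 193), KPNB1 (95 and 109) and NUP85 (94 and 128) stand at the top, and 7 genes show a value for 1 list alone.

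Of the peaks at ends of members with a known strand, 95% in inflachromene and 95.6% in DMSO were on the start side. Over all coding genes the shares were 94.6% and 93.8%. A further 10 inflachromene peaks in 9 members and 17 DMSO peaks in 13 members lay inside the genes, away from the outermost ends. These counts include peaks inside RANBP2, which the annotation used here runs from 108719482 to 109842301 on chromosome 2. Most of those lay at ends of CCDC138 or of SEPTIN10 and SOWAHC, so they are not read as RANBP2 peaks. The 3′ side of RANBP2 was likewise sought only at that distant end. An annotated start was given for 51 of the 58 members. Within 1000 bp of an annotated start lay 42 inflachromene peaks and 50 DMSO peaks of these genes. The upstream shares and median positions that follow are of these peaks alone, which the window keeps near a start. Upstream of the nearest start lay 38 of the 42 (90.5%, against 84.6% for all protein-coding genes) and 42 of the 50 (84%, against 83.1%). The median position was -76.5 bp in inflachromene and -73.5 bp in DMSO, and -90 and -83 bp over all genes. At the annotated 3′ side only XPOT and NUP107 had a summit within the window. The XPOT one, 990 bp beyond the gene in inflachromene and 908 bp in DMSO, also lay at an end of TBK1, and the NUP107 one lay at an end of SLC35E3.

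**Figure D2:**
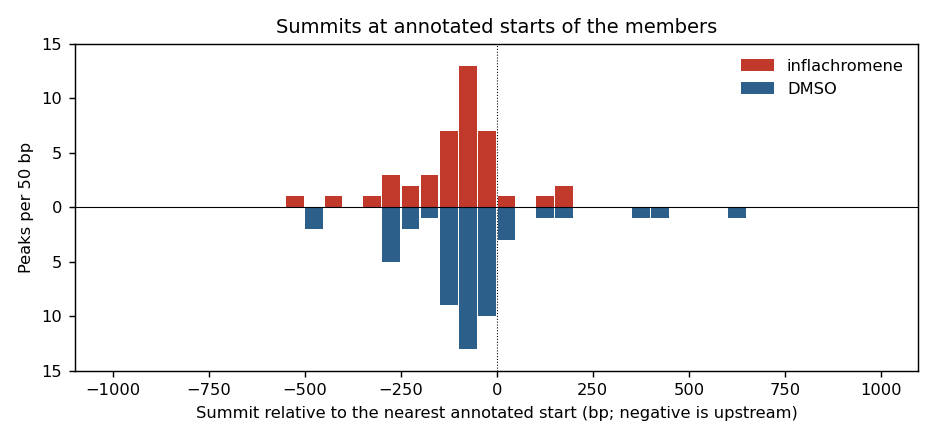
Number of member peaks per 50 bp of distance between the summit and the nearest annotated start (negative is upstream), with inflachromene above the line and DMSO below it. Only peaks within 1000 bp of a start are drawn. The summits gather just upstream of the start in both lists, with medians of -76.5 and -73.5 bp.

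Start windows of 6 members are shown because their peaks carry the main patterns: RAN and NUP205 were bound in both lists, XPOT had the lowest ratio of the 3 exportins bound in both, IPO7 and NUP50 were bound in DMSO alone, and KPNA1 was bound in inflachromene alone. Each runs 5′ to 3′ on the gene's strand from 250 bases before the annotated start to 50 after it (RefSeq, GRCh38.p14, which has hg38 coordinates). Capitals mark every match to the motifs listed after them.
RAN, chr12:130871816-130872115 (plus strand): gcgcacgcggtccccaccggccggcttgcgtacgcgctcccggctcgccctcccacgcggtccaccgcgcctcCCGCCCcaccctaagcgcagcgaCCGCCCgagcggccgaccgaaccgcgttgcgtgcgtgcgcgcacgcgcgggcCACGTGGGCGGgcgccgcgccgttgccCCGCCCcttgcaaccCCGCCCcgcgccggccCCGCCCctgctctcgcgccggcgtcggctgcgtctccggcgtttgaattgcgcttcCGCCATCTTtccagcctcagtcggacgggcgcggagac
NUP205, chr7:135557667-135557966 (plus strand): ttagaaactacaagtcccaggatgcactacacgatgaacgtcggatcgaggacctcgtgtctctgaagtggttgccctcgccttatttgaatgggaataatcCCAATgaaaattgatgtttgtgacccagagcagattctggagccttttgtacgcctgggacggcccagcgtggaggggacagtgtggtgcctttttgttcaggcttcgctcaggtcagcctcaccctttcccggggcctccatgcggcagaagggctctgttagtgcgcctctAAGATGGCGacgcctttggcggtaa
XPOT, chr12:64404142-64404441 (plus strand): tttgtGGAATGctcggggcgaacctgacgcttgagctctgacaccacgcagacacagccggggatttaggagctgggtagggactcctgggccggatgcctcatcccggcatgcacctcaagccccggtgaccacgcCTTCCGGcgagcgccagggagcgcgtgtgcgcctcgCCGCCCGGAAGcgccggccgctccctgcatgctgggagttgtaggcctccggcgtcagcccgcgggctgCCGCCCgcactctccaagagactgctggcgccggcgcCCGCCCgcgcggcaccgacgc
IPO7, chr11:9384402-9384701 (plus strand): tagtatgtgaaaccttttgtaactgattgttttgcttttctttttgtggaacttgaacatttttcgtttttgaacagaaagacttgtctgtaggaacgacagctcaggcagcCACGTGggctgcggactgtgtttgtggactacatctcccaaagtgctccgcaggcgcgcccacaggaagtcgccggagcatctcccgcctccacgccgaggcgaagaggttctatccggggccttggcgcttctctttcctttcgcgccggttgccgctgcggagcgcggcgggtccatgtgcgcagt
NUP50, chr22:45163675-45163974 (plus strand): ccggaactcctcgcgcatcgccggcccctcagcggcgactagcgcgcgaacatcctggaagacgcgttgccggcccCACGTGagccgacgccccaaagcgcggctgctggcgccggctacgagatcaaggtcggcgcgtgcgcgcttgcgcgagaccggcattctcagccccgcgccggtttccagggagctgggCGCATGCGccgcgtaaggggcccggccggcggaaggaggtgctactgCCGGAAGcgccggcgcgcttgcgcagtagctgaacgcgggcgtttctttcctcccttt
KPNA1, chr3:122514890-122515189 (minus strand): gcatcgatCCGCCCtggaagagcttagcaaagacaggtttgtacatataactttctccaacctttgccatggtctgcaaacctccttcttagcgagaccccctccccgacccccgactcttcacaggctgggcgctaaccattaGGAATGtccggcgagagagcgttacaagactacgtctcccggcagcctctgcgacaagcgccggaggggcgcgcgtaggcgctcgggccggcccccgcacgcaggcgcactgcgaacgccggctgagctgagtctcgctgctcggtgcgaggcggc

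The motifs, searched on both strands and allowed to overlap, were CGCATGCG for NRF1, CCGGAAG for the ETS family, CCAAT for NF-Y, GGGCGG for the SP and KLF family, AANATGGCG for YY1, GCGGGAA for E2F, CACGTG for the E-box, TGACGTCA for CRE, TGACTCA for AP-1, TATAAA for the TATA box and GGAATG for TEAD. A match on the other strand shows as the reverse complement. Positions count from the annotated start, with upstream bases negative. The RAN window held 6 GGGCGG matches, 1 CACGTG that overlaps the match beginning at -97, and a YY1 match beginning at base 13. NUP205 held a CCAAT at -148 and a YY1 match at base 26. XPOT held 3 GGGCGG matches, GGAATG at -245 and ETS matches at -113 and -73, and its inflachromene and DMSO summits were at -91 and -133. IPO7 held a single match, CACGTG at -138, with the DMSO summit at -111. NUP50 held the NRF1 palindrome at -55, CACGTG at -174 and an ETS match at -8, and its DMSO summit was at -85. KPNA1 held a GGGCGG match at -242 and GGAATG at -106, both well upstream of the inflachromene summit at -31.

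Among start windows with a peak within 1000 bp in either list, 55 belonged to members and 10331 to all protein-coding genes. They came from 47 and 8206 genes. Windows of neighbouring starts overlap, as at NUP98, SEC13 and XPO4, so the same site can count more than once. The ETS letters occurred in 17 member windows (30.9%, against 21.5% of all), the YY1 letters in 8 (14.5%, against 7.85%), and the E2F letters in 9 (16.4%, against 11.3%). These are few windows, no interval is given for the motif shares, and no gap between them was tested. The GGGCGG letters were found in 31 (56.4%, against 75.3%). Over all start windows, bound or not (67 of members and 22156 in all), the gap was smaller for GGGCGG, 50.7% against 56.3%, and larger for the E2F letters, 19.4% against 8.14%. There the ETS letters were in 25.4% against 12.8% and the YY1 letters in 11.9% against 4.25%. A peak lay near 55 of those 67 windows and near 10331 of the 22156. The sets thus also differ in their bound share, and its part in these gaps was not tested. The remaining motif shares are again those of windows with a peak, unless all start windows are named. CCAAT was at similar shares, 36.4% and 38.4%, and at 40.3% and 34.6% over all start windows. The NRF1 palindrome was found in 4 member windows (7.27% against 4.32%), those of IPO11, NUP107, NUP50 and NUP62. AP-1 letters were in 1 window, at the inner start of TNPO1 (1.82% against 2.51%). The NRF1 and AP-1 letters were changed after a first form had been counted. The first forms, with 1 more base on each side for NRF1 and an open middle base for AP-1, were each in 3 member windows, 5.45% against 2.5% for NRF1 and 5.45% against 3.66% for AP-1, so the order of the AP-1 shares turned with the letters. E-box letters were in 12.7% against 10.5%, CRE letters in 5.45% against 3.56%, TATA letters in 3.64% against 4.13% and TEAD letters in 14.5% against 10.1%. The median GC content was 63.7% in bound member windows, 52.3% in the 12 member windows with no peak and 66.3% in all bound windows. A match is only a run of letters, and GC content moves with several of these shares; its part in them was not tested.

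**Figure D3:**
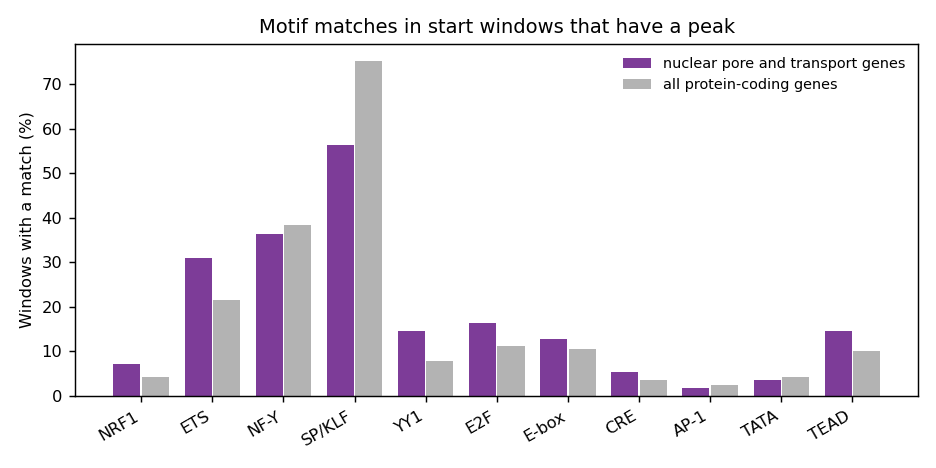
Percentage of 300-base start windows with at least 1 match to each motif, among windows with a peak within 1000 bp, for members (55 windows) and for all protein-coding genes (10331 windows). GGGCGG is at 56.4% and 75.3%, and the ETS letters at 30.9% and 21.5%.

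At the 40 genes bound in both lists the peaks overlapped in every case, and the fragment count was lower in inflachromene at 32 of them (80%, against 77.4% of all genes with an overlapping pair), higher at 7 (17.5%, against 18.2%) and equal at NUP214. The median of the pileup ratio, inflachromene over DMSO, was 0.816 (interval from order statistics 0.734 to 0.878), against 0.822 over 7212 genes and 0.964 for the number of fragments in the libraries. The 0.964 leaves out fragment length, 165.7 bp in inflachromene and 152.4 bp in DMSO, on which a pileup also depends. The lowest backgrounds, which hold both number and length, were 0.683 in inflachromene and 0.651 in DMSO. A ratio at least 1.5-fold lower was found at 9 members (22.5%, against 18.8% of all genes) and one at least 1.5-fold higher at 0 (against 1.15%). These shares lay close to those of all genes. The counting interval of the ratio stayed below 1 at 4 members (10%, against 8.61%), NUP98, NUP85, XPOT and KPNA5, and below 0.964 at 2, XPOT and KPNA5 (5%, against 6.25%). It stayed above 1 at 0 of the 40 members, against 0.125% of all genes.

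Pairs with a mean of 30 or more fragments had a median ratio of 0.735 at 19 members (0.706 to 0.872) and 0.81 at 3433 genes (0.804 to 0.818); 17 of the 19 were lower in inflachromene (89.5%, against 82.8%). Pairs with fewer fragments had 0.846 at 21 members (0.769 to 1.0) and 0.833 at 3779 genes. The members' intervals contain the value for all genes in both ranges of strength. Summits of a pair lay a median of 42.5 bp apart at the 40 members and 36 bp apart over all pairs. They were within 50 bp at 22 of the 40 (4554 of 7212 over all genes), and the largest distance was 265 bp, at KPNA3. The inflachromene peak was the narrower at 28 of 40 (70%, against 69%), with median widths of 377.5 bp in inflachromene and 425 bp in DMSO. Across the 40 pairs, which share both libraries and a common choice of bound genes, Spearman's correlation of the 2 pileups was 0.913.

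**Figure D4:**
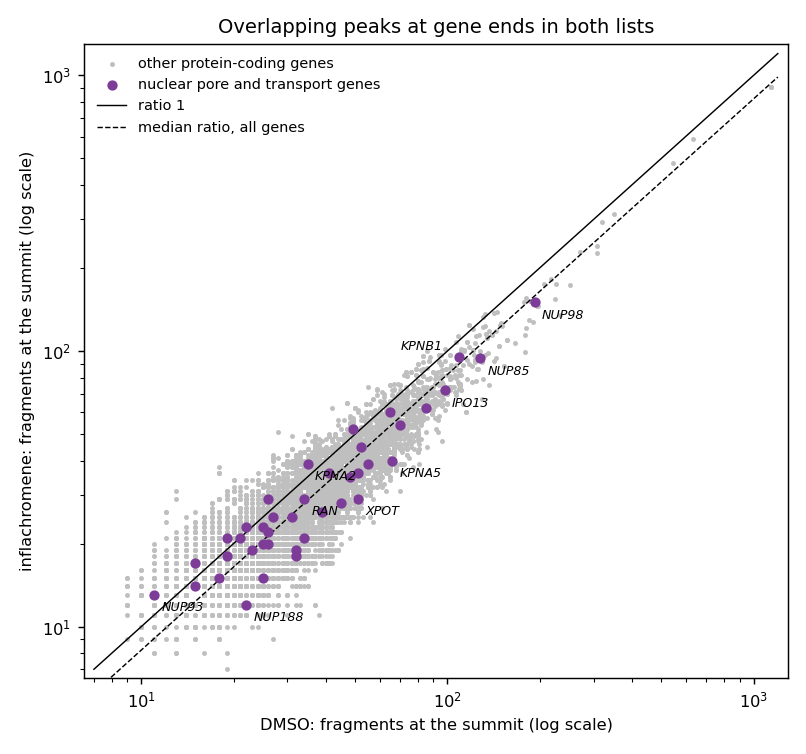
Fragments at the summit in DMSO (horizontal) and inflachromene (vertical), both on log scales, for genes with overlapping peaks; the 40 members are the large points and other protein-coding genes the small ones. Members follow the dashed line of the median ratio over all genes, 0.822.

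The counts by role that follow are of few genes each. They stand beside shares over all genes of 38% in inflachromene, 45.7% in DMSO and 36.3% in both lists. In the Y complex, the outer scaffold that seeds pore assembly, 6 of 7 genes had an inflachromene peak and all 7 a DMSO peak. At NUP85 (chromosome 17, inflachromene peak 75205177 to 75205793, DMSO peak 75205174 to 75205801) the summits held 94 fragments in inflachromene and 128 in DMSO, a ratio of 0.734 (0.557 to 0.966). SEC13, which also serves the COPII coat, had 28 and 45 fragments in inflachromene and DMSO. NUP133 had 23 and 25, so its libraries lay much closer. NUP37 was the only gene of the group with the higher count in inflachromene, 17 against 15, a ratio of 1.133 (0.532 to 2.437), at a peak it shares with PARPBP. NUP43, with 15 in inflachromene and 18 in DMSO, shares its peak with PCMT1. The pair with the most fragments at NUP107 was the one at SLC35E3 (35 and 48), and at its own start the summits held 18 fragments in inflachromene and 23 in DMSO. NUP160 had a peak in DMSO alone, 19 fragments at 7.97-fold.

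In the inner ring, which anchors the pore to the curved membrane, 4 of 5 genes were bound in both lists. NUP205 was the strongest, with 60 fragments in inflachromene and 65 in DMSO and fold enrichments of 16.9 and 17.4. NUP155 had 36 and 41. NUP188, an adaptor paralogous to NUP205, had 12 in inflachromene and 22 in DMSO, the lowest ratio of any member at 0.545 (0.246 to 1.151), at a peak shared with DOLK. NUP93 had 13 in inflachromene and 11 in DMSO, the highest ratio of any member at 1.182 (0.489 to 2.913). Both intervals include 1, so the 2 extremes rest on few fragments. NUP35 had no peak at its outermost ends, but a DMSO peak of 20 fragments lay 72 bp from another annotated start, 6857 bp inside the gene.

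The central channel genes were all bound in both lists. NUP98 (chromosome 11, inflachromene peak 3797536 to 3798108), encoding a precursor that is cleaved into the channel protein NUP98 and the scaffold protein NUP96, had the most fragments of any member: 150 in inflachromene and 193 in DMSO, at fold enrichments of 18.4 and 20.5. Its ratio was 0.777 (0.624 to 0.967), and the peak also lay at an end of PGAP2. NUP58 had 18 and 32 fragments in inflachromene and DMSO, a ratio of 0.562 (0.297 to 1.033). NUP62 had 21 and 19, a ratio of 1.105 (0.566 to 2.173), at a peak shared with IL4I1, some 500 bp upstream (527 and 484 bp). NUP54 had 18 and 19 at its start, and a further DMSO peak of 16 fragments at 414 bp downstream.

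At the cytoplasmic face, where messenger RNPs leave the pore, 6 of 6 genes had a peak in inflachromene and 5 of 6 in DMSO. NUP42 had 52 and 49 fragments in inflachromene and DMSO, and NUP88 36 and 51 at a peak shared with RPAIN. RANBP2, the large filament protein that binds RAN, had 22 and 26. NUP214, its neighbour on the filaments, had 21 in each library, and AAAS, encoding ALADIN, had 20 and 25. RAE1, an mRNA export factor that binds NUP98, was bound in inflachromene alone, with 15 fragments at 7.52-fold (chromosome 20, 57351143 to 57351319). Both libraries also had a peak inside RAE1, 7343 bp and 7347 bp from the nearest annotated start, with 21 fragments in inflachromene and 18 in DMSO.

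Of the 3 basket genes TPR and NUP153 were bound in both lists. TPR, the coiled-coil protein of the basket, had 26 and 39 fragments in inflachromene and DMSO, a ratio of 0.667 (0.39 to 1.123), at a peak shared with ODR4. NUP153, which tethers the basket to the pore, had 29 and 26, a ratio of 1.115 (0.634 to 1.971). NUP50, an importin alpha binding protein, had 17 fragments at 9.33-fold in DMSO alone (chromosome 22, 45163727 to 45164062). In the membrane ring NDC1 had 62 and 85 fragments in inflachromene and DMSO, a ratio of 0.729 (0.517 to 1.024), and POM121 had 14 and 15. POM121 has a near-identical copy, POM121C, so fragments of the pair may be hard to place; POM121C had 22 in inflachromene and 21 in DMSO. A further peak pair lay at an internal annotated start of POM121, 16 and 13 fragments. The membrane nucleoporin NUP210 and the paralogs NUP210L and NUP62CL had no peak at an end in either list.

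Importin alpha genes, the adaptors for classical import signals, were bound at 6 of 7 in inflachromene and 5 of 7 in DMSO. KPNA2, whose product is abundant in proliferating cells, had 39 fragments in inflachromene and 35 in DMSO, a ratio of 1.114 (0.688 to 1.812). KPNA5 had 40 and 66, a ratio of 0.606 (0.399 to 0.911), and KPNA4 had 39 and 55. KPNA3 had 23 and 22, and KPNA6 had 19 and 23. The ratios of this group thus lay on both sides of 1. KPNA1 was bound in inflachromene alone, with 22 fragments at 7.09-fold (chromosome 3, 122514831 to 122515110). KPNA7, an importin alpha known mainly from oocytes and embryos, had no peak at its ends in either list. Both lists had a peak of 18 fragments inside it, 11193 bp from an end in inflachromene and 11217 bp in DMSO. The nearest summits lay outside the gene, with 49 fragments at 2562 bp in inflachromene and 60 at 2449 bp in DMSO.

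The 7 importin beta family genes bound in both lists each had the lower count in inflachromene, as did 77.4% of all paired genes. Their median ratio was 0.735. With 7 pairs the interval of that median, 0.594 to 0.926, runs from the lowest to the highest of their ratios. It holds the 0.822 of all genes, but so wide an interval cannot tell whether the family differs from them. KPNB1, the partner of importin alpha, had 95 fragments in inflachromene and 109 in DMSO, a ratio of 0.872 (0.655 to 1.158). IPO13, a receptor that works in both directions, had 72 and 98, a ratio of 0.735 (0.534 to 1.006). IPO9 had 25 and 31, and IPO8 had 25 and 27. The lowest ratios of the family were at IPO4 (19 and 32, shared with TM9SF1), TNPO1 or transportin (15 and 25) and IPO11 (21 and 34), at 0.594 (0.318 to 1.08), 0.6 (0.294 to 1.183) and 0.618 (0.341 to 1.095). IPO7, which imports ribosomal proteins and histones, had 39 fragments at 9.70-fold in DMSO 111 bp upstream of its start, a second DMSO peak of 19 fragments 606 bp downstream, and no inflachromene peak. By fragments this was high for a peak called in 1 list, though its fold enrichment was below the members' DMSO median of 11.1, over a local background of 3.12 fragments. Of 2647 genes with at least as many DMSO fragments, 23 (0.869%) had no inflachromene peak at an end; IPO7 was singled out after its value was seen.

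Among the exportins 3 of 6 genes had a peak in inflachromene (against 38% of all genes) and 5 of 6 in DMSO (against 45.7%). XPO1, or CRM1, the main exporter of proteins with leucine-rich signals, had 54 fragments in inflachromene and 70 in DMSO, a ratio of 0.771 (0.531 to 1.116). XPOT, the tRNA exporter, had 29 and 51, a ratio of 0.569 (0.348 to 0.914), and XPO6, which exports actin, had 20 and 26. XPO5, the exporter of precursor microRNAs, had 22 fragments in DMSO alone, at a peak shared with POLH, and XPO4 had 13. XPO7 was bound in neither list, and its nearest summit was 235599 bp away in inflachromene and 103010 bp in DMSO.

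In the Ran cycle 2 of 4 genes were bound, both of them in both lists. RCC1, the nucleotide exchange factor, had 45 fragments in inflachromene and 52 in DMSO, and RAN itself 29 and 34, with ratios of 0.865 (0.567 to 1.315) and 0.853 (0.501 to 1.442). RANGAP1 and RANBP1 were unbound by the rule, but both had peaks close by. RANGAP1 had 40 and 46 fragments in inflachromene and DMSO at another annotated start, 173 and 210 bp upstream of it, far inside the outermost gene end. RANBP1 had 24 and 23 fragments 1299 bp and 1249 bp from its end, and these peaks lay at an end of TRMT2A.

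**Figure D5:**
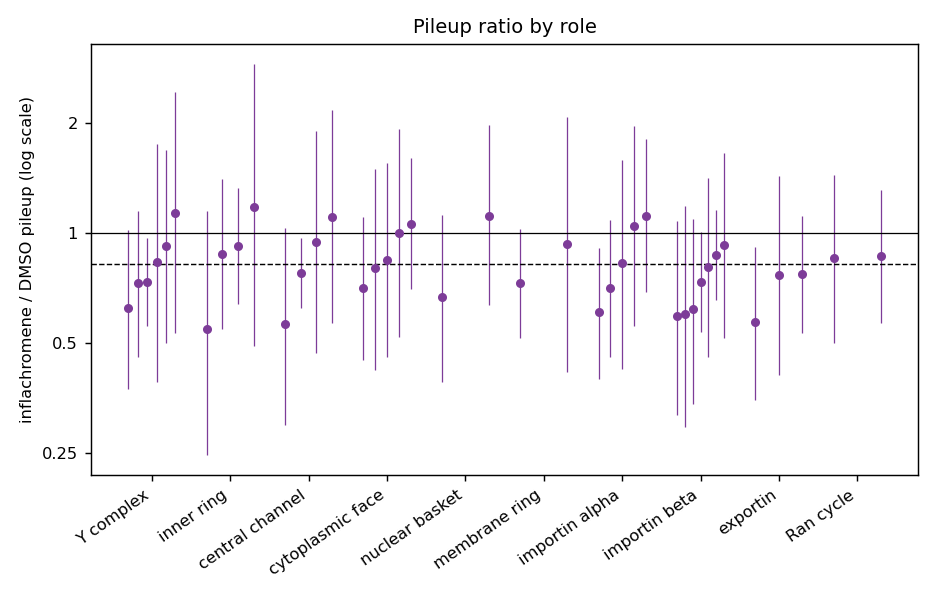
Ratio of inflachromene to DMSO pileup (log scale) at the 40 members bound in both lists, by role, with exact 95% counting intervals; the solid line is 1 and the dashed line the median over all genes, 0.822. All 7 importin beta family genes and all 3 exportins lie below 1, as do 77.4% of all genes with an overlapping pair. The other groups except the membrane ring and the Ran cycle have members on both sides.

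The 5 members bound in DMSO alone were 11.1% of the 45 bound in DMSO (3.71 to 24.1), against 20.6% of all genes. Their counts were 13 at XPO4, 17 at NUP50, 19 at NUP160, 22 at XPO5 and 39 at IPO7. With fewer than 20 DMSO fragments 3 of 9 members had no inflachromene peak (33.3%, against 54.1% of all genes), with 20 to 29 it was 1 of 12 (8.33%, against 19.9%), with 30 to 49 1 of 12 (8.33%, against 2.94%) and with 50 or more 0 of 12 (against 0.395%). Members without a call thus lay mostly, but for IPO7, among the weak peaks. In the other direction 2 of 42 members bound in inflachromene had no DMSO peak (4.76%, against 4.45%).

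Of the nearest summits at each gene, those furthest out within the limit of 1000 bp were at NUP62 (527 bp in inflachromene and 484 bp in DMSO), and just outside it were TNPO3, with a DMSO summit of 16 fragments at 1029 bp, and TNPO2, with 25 fragments at 1225 bp in inflachromene and 37 at 1197 bp in DMSO. At both of these import receptors the summit lay near another annotated start, 53 bp from it at TNPO3 and 448 and 476 bp at TNPO2. When summits were counted within 1000 bp of any annotated start, 40 of 51 members were bound in inflachromene (78.4%, against 42.1% of 15813 genes) and 45 in DMSO (88.2%, against 50.2%). The share of DMSO-bound members with no inflachromene peak was then 15.6% (7 of 45, against 19.5%), as NUP35 and TNPO3 joined the list. Of the 4 members left without a peak (7.84%, against 48.1%), IPO5 had 1 far inside the gene in each list, with 18 fragments in both, and NUP210, NUP210L and NUP62CL had none within 1000 bp of a start. The alternative starts of NUP93, NUP214, IPO11 and RCC1 that lie further inside had no peak, whereas TNPO1 was bound at a second start with 15 fragments in inflachromene and 24 in DMSO.

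The peak credited to a member in DMSO also lay at an end of another protein-coding gene at 10 of 45 members (22.2%, against 31.6% of all bound genes), so such a peak cannot be credited to a single gene. It did at 8 of 25 nucleoporin genes and at 2 of 18 transport receptor genes. The median ratio was 0.846 over 23 nucleoporin pairs (0.729 to 0.947) and 0.769 over 15 receptor pairs (0.606 to 0.872). These intervals overlap, and the difference was not tested.

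Other genes of the pathway, 36 in all and taken from a list of pore, Ran, mRNA export and lamina genes, had a peak at 26 in inflachromene (against 38% of all genes) and at 31 in DMSO (against 45.7%). Peaks stood in both lists at 26 (against 36.3%), in DMSO alone at 5 (DDX19A, LMNB2, PCID2, RCC2 and SUN2, against 9.41%) and in inflachromene alone at 0 (against 1.69%). Their median ratio was 0.88 (0.795 to 0.968), against 0.822 over all genes, with 19 lower in inflachromene, 5 higher and 2 equal. CSE1L, which returns importin alpha to the cytoplasm, had 21 fragments in inflachromene and 25 in DMSO, and SEH1L, a Y complex partner, had 46 and 57. SENP2, encoding a SUMO protease, had 50 and 80. AHCTF1, encoding ELYS, which brings the Y complex to chromatin, was among the 5 higher ones, with 42 in inflachromene and 30 in DMSO. The spindle checkpoint genes MAD1L1 and MAD2L1, whose products also bind the pore, had 18 and 21 fragments in inflachromene, against 13 and 16 in DMSO, and POM121C is given above. LBR, the lamin B receptor of the inner nuclear membrane, had 31 in inflachromene and 13 in DMSO, a ratio of 2.385, and no other of the 7212 genes with a pair had a ratio as high. LBR was singled out after its value was seen.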

How the data were processed

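Peaks were called with MACS2 on hg38, and deepTools 3.5.6 was also used, per the submitters' processing notes; the antibody, aligner, MACS2 version, duplicate handling and any pooling were not stated. The authors deposited 1 peak list per sample, whose columns hold the fold enrichment (a ratio), the −log10 p-value and the −log10 q-value at each summit. The lowest deposited −log10 q was 3.01 in inflachromene and 3.02 in DMSO. The whole number of fragments at a summit, its pileup, was recovered as the value n with fold enrichment (n + 1)/(background + 1) and the Poisson −log10 p. It matched within 0.001 for all 10836 and 15186 peaks used. On data simulated with these same formulas 2000 of 2000 were returned, which checks the search for n and not the formulas. The formulas are an inference from the values, not a statement by the authors. The ratio of fragment numbers, 0.964, was inferred from the lowest backgrounds and the fragment lengths (165.7 bp in inflachromene and 152.4 bp in DMSO) that the background steps imply. Depth in total fragments is unknown.

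Summits were set against RefSeq genes (GRCh38.p14) with scipy 1.17.1 and pandas 2.3.3, within 1000 bp of either end. Where a gene had overlapping peaks in both lists (at least 1 bp), the pair with the highest summed pileup gave its ratio. Intervals at 95% are exact Clopper-Pearson for shares, exact Poisson for pileups, conditional binomial for ratios and binomial order statistics for medians. With 1 sample per treatment no test was made. Values were given in full for members with the highest summed pileup, the extreme ratios, a peak in 1 list alone, and 8 fixed members (RAN, RCC1, KPNB1, XPO1, KPNA2, NUP98, NUP153 and TPR). The members and lists were chosen with earlier results of these data known, and the NRF1 and AP-1 letters printed were set after a first form had been counted. Peaks outside chromosomes 1 to 22 and X, 155 in inflachromene and 168 in DMSO, were not used here.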

Additional observations from a re-analysis of the deposited data

How the results depend on the processing

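No paired analysis was possible because each treatment has a single library. Of 68 values under alternatives, 66 stayed within 1.5 times the count or within the interval of the main value. Some of the 66 could not move. Asking for a −log10 q of at least 5 dropped no peak credited to a member, the lowest being 5.69 at TNPO1 in inflachromene. Leaving out NUP210L and NUP62CL removed no bound gene. At equal list lengths 5 members were bound in inflachromene alone, against 2, and 4 in DMSO alone, against 5, because NUP43, POM121, NUP93 and XPO4 left the DMSO list; with fewer DMSO peaks kept this follows by construction. With only pairs of at least 30 fragments on average, 17 members were lower in inflachromene, of 19 pairs. The lost share, 11.1%, ranged from 9.76% to 15.6%, and the median ratio from 0.735 to 0.868. Restricting the ratio to annotated starts was added after the data were examined and gave 0.816 over 38 pairs, with 30 lower. Low pileups limit precision: the counting interval of the ratio lies wholly on 1 side of 1 at 4 of 40 members.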
